A study of Mus musculus with 6 samples.

Results

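Endothelial cells line every blood vessel of adipose tissue, and 10 genes of this cell type were followed in the epididymal white adipose tissue (eWAT) of cachectic and control mice. The 10 genes were found by symbol among the 54532 genes of the deposited count table, each as a single entry. Of these, 8 are established endothelial markers, namely Pecam1, Cdh5, Kdr, Flt1, Tek, Tie1, Esam and Cldn5. The other two, Apold1 and Ctla2a, were selected on their fold change, a strong rise in the same comparison, so their rise is given as a description, without a test. eWAT is the fat pad beside the epididymis. It was taken from 3 C57BL/6 mice made cachectic with LLC cells, which stem from Lewis lung carcinoma of the mouse, and from 3 C57BL/6 control mice. The methods describe male mice of 6 to 10 weeks that received the LLC cells under the skin, and harvest on day 21. They define cachexia by loss of body weight and do not state in the text used here what the control mice received. The whole fat pad was sequenced, and each value is relative to all RNA counted in the sample. A higher value can come from more endothelial cells or from more RNA per endothelial cell. It can also come from less RNA of other cells, or from other cells that express the gene. These cannot be told apart.

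The endothelium is a single layer of cells held together by junction proteins. VE-cadherin (Cdh5), PECAM-1 (Pecam1), ESAM (Esam) and claudin-5 (Cldn5) sit at the contacts between neighbouring cells, where they set how tightly the vessel wall is sealed and where leukocytes cross it. Growth and upkeep of vessels depend on receptor tyrosine kinases. VEGF-A signals mainly through VEGFR2 (Kdr), while VEGFR1 (Flt1) binds VEGF-A, VEGF-B and placental growth factor with high affinity and transmits a weaker signal. TIE2 (Tek) is the receptor of the angiopoietins, and TIE1 (Tie1) is its partner receptor. Apold1 encodes a membrane protein related to apolipoprotein L that is known as a vascular early response gene. Ctla2a encodes a small protein resembling the propeptide of cysteine proteases, which inhibits cathepsin L.

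Expression is given as CPM, the count of a gene relative to the library's size after TMM scaling, and a fold change is cachexia over control, with its standard error (SE). The total count was between 14928766 and 18855546 per mouse, with all 3 cachectic libraries smaller than all 3 control libraries. All 10 genes were among the 16003 tested. Of the genes tested, in cachectic mice 9.0% were called higher and 8.63% lower, with a threshold of 0.05 on the adjusted p (edgeR's quasi-likelihood test, Benjamini-Hochberg adjustment over all genes tested), and the median log2 fold change of all of them was -0.003. In 20.4% of the genes tested every cachectic mouse lay above every control mouse. Nothing in the labels names separate batches. Coordinates are those of the deposited files, which match the GRCm38 assembly, although the submitters' processing notes name mm9.

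The sequence before the gene start is shown for 3 genes, because Flt1 and Kdr encode receptors of the same ligand whose expression moved unequally, and Ctla2a was one of the selected genes. The sequences are RefSeq reference sequence of GRCm38.p6, and 7 of the 10 genes matched an entry. Each is read 5′ to 3′ on the strand of its gene and ends at the base before the gene start of the deposited files, with matches to the searched motifs in capitals.
Ctla2a, chr13:60936626-60936875, minus strand: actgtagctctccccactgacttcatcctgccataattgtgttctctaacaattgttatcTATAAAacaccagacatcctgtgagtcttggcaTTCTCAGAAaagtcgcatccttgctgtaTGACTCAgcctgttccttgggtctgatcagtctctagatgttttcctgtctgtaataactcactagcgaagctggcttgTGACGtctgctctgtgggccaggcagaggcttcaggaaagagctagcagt
Flt1, chr5:147726012-147726261, minus strand: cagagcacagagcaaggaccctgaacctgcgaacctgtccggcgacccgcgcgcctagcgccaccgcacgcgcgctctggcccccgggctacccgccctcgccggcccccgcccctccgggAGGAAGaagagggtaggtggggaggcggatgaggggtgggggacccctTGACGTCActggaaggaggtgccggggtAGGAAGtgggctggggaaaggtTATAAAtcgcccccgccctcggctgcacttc
Kdr, chr5:75978459-75978705, minus strand: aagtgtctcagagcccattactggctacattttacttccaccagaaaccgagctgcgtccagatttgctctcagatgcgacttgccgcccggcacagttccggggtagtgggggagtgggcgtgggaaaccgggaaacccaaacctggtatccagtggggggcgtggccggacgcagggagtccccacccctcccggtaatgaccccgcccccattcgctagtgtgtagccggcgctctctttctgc
The motifs were searched on both strands in the 250 bases before each RefSeq start and compared with 32851 promoters of the same length. They were the ETS-like AGGAAG, in 29.5% of promoters, the AP-1 motif TGANTCA, in 6.75%, and the STAT motif TTCNNNGAA, in 7.02%. The hypoxia response core ACGTG was in 16.6%, the TATA box TATAAA in 12.4% and the CRE core TGACG in 17.8%. Before the RefSeq start shown, Ctla2a held 1 match each to the AP-1, STAT, TATA box and CRE motifs. Another RefSeq start of Ctla2a lies 59 bases inside the deposited gene. Its window held 1 match to each of these motifs and also 1 ETS-like match. Flt1 held 2 ETS-like matches, 1 TATA box and 2 CRE cores, the last from a single palindrome read on both strands. Kdr held no match, and so did Tek and Cldn5. These matches describe letters in a window and name no factor that binds there. For Apold1 the RefSeq start lies within the transcribed region of the deposited gene, so its window is not shown.

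Among the junction proteins, all 4 genes were upregulated in cachectic mice, and for each of them every cachectic mouse lay above every control mouse. The background of calls in this direction was 9.0% of genes tested. That of every cachectic mouse above every control mouse was 20.4%. Esam, a junctional adhesion molecule of endothelium and platelets (chr9:37528078-37538319, plus strand), had 95.2, 106 and 90.2 CPM in controls (replicates 1, 2 and 3, in this order here and for the genes that follow) and 203, 362 and 289 CPM in cachectic mice. The highest cachectic mouse was replicate 2, and the groups were far apart. Its mean rose from 97.2 ± 8.12 to 285 ± 79.3 CPM (SD, n = 3), a log2 fold change of 1.55 (SE 0.22, adjusted p = 0.00492 by edgeR).

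Pecam1, the homophilic adhesion protein that is also found on platelets and leukocytes (chr11:106654217-106750628, minus strand), had 366, 353 and 346 CPM in the control mice and 724, 1072 and 584 CPM in the cachectic mice. The control mice lay within a narrow range and the cachectic mice were spread widely, with replicate 2 highest and replicate 3 lowest. The mean was 355 ± 10.1 CPM in control mice and 793 ± 251 CPM in cachectic mice (SD, n = 3), a log2 fold change of 1.16 (SE 0.24, adjusted p = 0.017 by edgeR). Without control replicate 2 or control replicate 3 the adjusted p of Pecam1 was 0.0667 and 0.0805 by edgeR, with a log2 fold change of 1.15 and 1.14.

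Cldn5, the tight junction protein that seals small vessels (chr16:18776847-18778262, plus strand), had 180.4, 211 and 216 CPM in control mice and 332, 297 and 392 CPM in cachectic mice. Here cachexia replicate 2 was the lowest of its group, unlike for Esam and Pecam1. The log2 fold change was 0.75 (SE 0.16, adjusted p = 0.0204 by edgeR). Leaving out any 1 control mouse moved the adjusted p of Cldn5 to between 0.0515 and 0.0789 by edgeR.

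Cdh5, the adherens junction cadherin of endothelium (chr8:104101625-104144511, plus strand), had 376, 370.4 and 375 CPM in control mice and 640, 762 and 469 CPM in cachectic mice. Control mice differed by only a few CPM, while the cachectic mice ranged more widely, with replicate 3 lowest. The log2 fold change was 0.74 (SE 0.20, adjusted p = 0.0426 by edgeR), which was the weakest call among the markers. It was lost when any mouse other than cachexia replicate 3 was left out, with an adjusted p of 0.0837 to 0.145 by edgeR and a log2 fold change of 0.57 to 0.74. With all mice but no filter on low counts, the adjusted p of Cdh5 was 0.0554 by edgeR.

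Among the 4 receptor genes, Flt1 was the only one with an adjusted p under 0.05. Flt1 (chr5:147561604-147726011, minus strand) had 129, 194 and 167 CPM in control mice and 414, 329 and 389 CPM in cachectic mice. Every cachectic mouse exceeded the highest control mouse by a wide margin. The mean rose from 163 ± 32.6 to 377 ± 43.8 CPM (SD, n = 3), a log2 fold change of 1.21 (SE 0.19, adjusted p = 0.00724 by edgeR). Flt1 and Esam kept an adjusted p under 0.05 in all 18 other settings tried.

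Kdr (chr5:75932827-75978458, minus strand) had 233, 300.2 and 274 CPM in control mice and 373, 289 and 298 CPM in cachectic mice. The groups overlapped, since cachexia replicates 2 and 3 lay below the highest control mouse. The log2 fold change was 0.25 (SE 0.17, adjusted p = 0.343 by edgeR), and it stayed between 0.12 and 0.34 over the other settings without passing the threshold in any.

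Tie1 (chr4:118471191-118490061, minus strand) had 148, 124 and 123 CPM in control mice and 183, 289 and 166 CPM in cachectic mice. The groups did not overlap, but the log2 fold change of 0.69 (SE 0.22) had an adjusted p of 0.0703 by edgeR, against 0.0227 by DESeq2. Tek (chr4:94739289-94874976, plus strand) had 84.7, 101 and 89.8 CPM in control mice and 134, 170.1 and 86.7 CPM in cachectic mice. Cachexia replicate 3 lay within the control range, and the log2 fold change of Tek was 0.50 (SE 0.23, adjusted p = 0.172 by edgeR). Without cachexia replicate 3, the lowest of its group for both genes, the adjusted p was 0.0474 for Tie1 and 0.0291 for Tek by edgeR, with log2 fold changes of 0.85 and 0.73.

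**Figure D1:**
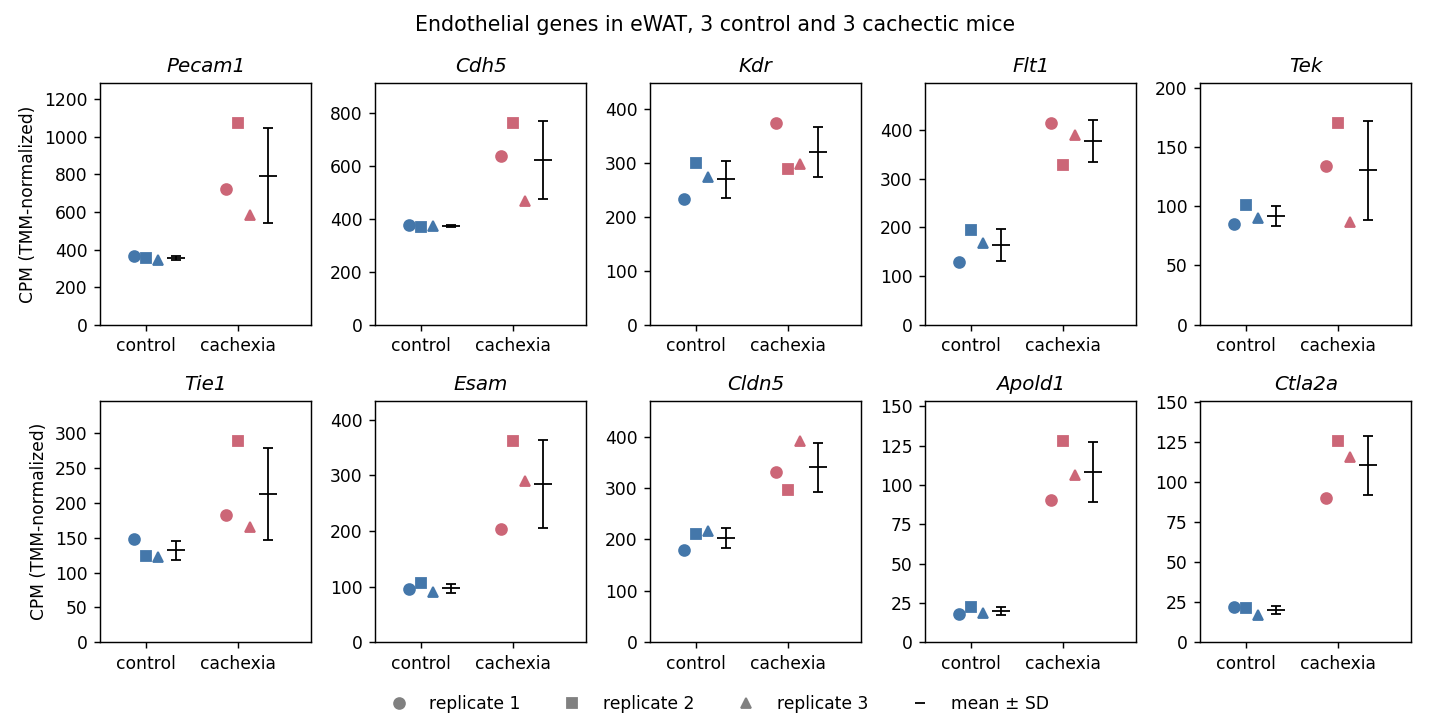
Expression of the 10 endothelial genes in each mouse, in TMM-normalized CPM on a linear axis from 0. Circles, squares and triangles are replicates 1, 2 and 3, and the black bar gives the mean ± SD (n = 3). Kdr and Tek overlap between the groups, while in the other genes every cachectic mouse lies above every control mouse.

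In sum over the 8 established markers, 5 were called higher and 0 lower, against 9.0% and 8.63% of all genes tested. The other 3 were not called, while all 8 had a positive log2 fold change with a median of 0.74. In 6 of the 8 the groups did not overlap, against 20.4% of all genes tested in this direction. The summed expression of the 8 was between 1612 and 1759 CPM in control mice and between 2673 and 3569 CPM in cachectic mice. The list was composed with earlier results of these mice known, so its count has no test of its own.

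Levels of different genes can be compared only roughly, once they are divided by the deposited gene length, which may differ from that of the transcript expressed. Per kilobase, Cldn5 was the highest of the 10 in both groups, at 143 ± 13.5 CPM per kb in control mice and 240.4 ± 33.8 CPM per kb in cachectic mice (SD, n = 3). Cdh5 followed with 88.9 ± 0.722 and 148 ± 35 CPM per kb, and Pecam1 with 57 ± 1.62 and 127 ± 40.4 CPM per kb. In cachectic mice the intervals of Cdh5 and Pecam1 of 1 SD overlapped, whereas in control mice they did not. Apold1 was the lowest in control mice, at 5.52 ± 0.731 CPM per kb, and Ctla2a had 9.54 ± 1.22 CPM per kb. In cachectic mice Ctla2a reached 52.6 ± 8.77 and Apold1 30.3 ± 5.27 CPM per kb, while Tek (27.6 ± 8.87), Flt1 (27.9 ± 3.24) and Kdr (35.4 ± 5.11) lay within 1 SD of Apold1.

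The unequal change of the VEGF receptors can be read within each mouse from the ratio of Flt1 to Kdr per length, which was chosen after the values had been seen and was not tested. The ratio was 0.369, 0.431 and 0.406 in the control mice and 0.742, 0.761 and 0.874 in the cachectic mice. Per length, Kdr was thus the higher of the pair in all 6 mice, and the gap was narrower in cachectic mice. That ranking rests on the deposited gene lengths, 13504 bases for Flt1 and 9030 for Kdr. Without division by length, Flt1 had more CPM than Kdr in every cachectic mouse and less in every control mouse. The ratio of Tie1 to Tek, the receptor pair of the angiopoietin pathway, was between 1.17 and 1.67 in control mice and between 1.31 and 1.83 in cachectic mice, so the groups overlapped. The ratio of Esam to Cdh5 was between 0.352 and 0.42 in control mice and between 0.466 and 0.904 in cachectic mice. That of Pecam1 to Cdh5 was between 0.623 and 0.657 in control mice and between 0.763 and 0.95 in cachectic mice. These other ratios were also chosen after the values had been seen and were not tested. Cdh5 had the smallest log2 fold change of the junction members, so ratios over it describe that choice.

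The selected gene Apold1 (ENSMUSG00000090698, chr6:134981718-134986836, plus strand) had 17.7, 22.6 and 18.7 CPM in control mice and 90.5, 128 and 106 CPM in cachectic mice. These are raw counts of 353, 395 and 330 in control mice and 1551, 2081 and 1611 in cachectic mice, so the values rest on at least 330 reads in each mouse. The mean went from 19.7 ± 2.61 to 108 ± 18.8 CPM (SD, n = 3), or 5.49-fold (log2 fold change 2.46, SE 0.17). Ctla2a (ENSMUSG00000044258, chr13:60934155-60936625, minus strand) had 21.9, 21.3 and 17.2 CPM in control mice and 90.3, 126 and 116 CPM in cachectic mice. Its mean went from 20.1 ± 2.58 to 111 ± 18.5 CPM (SD, n = 3), or 5.51-fold (log2 fold change 2.46, SE 0.17). For both genes cachexia replicate 2 was the highest and replicate 1 the lowest of their group. Over the other settings the log2 fold change was between 2.24 and 2.57 for Apold1 and between 2.32 and 2.59 for Ctla2a. Of all genes, 167 of those tested (1.04%) had a log2 fold change above that of both genes, so they were not the largest rises in the tissue.

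**Figure D2:**
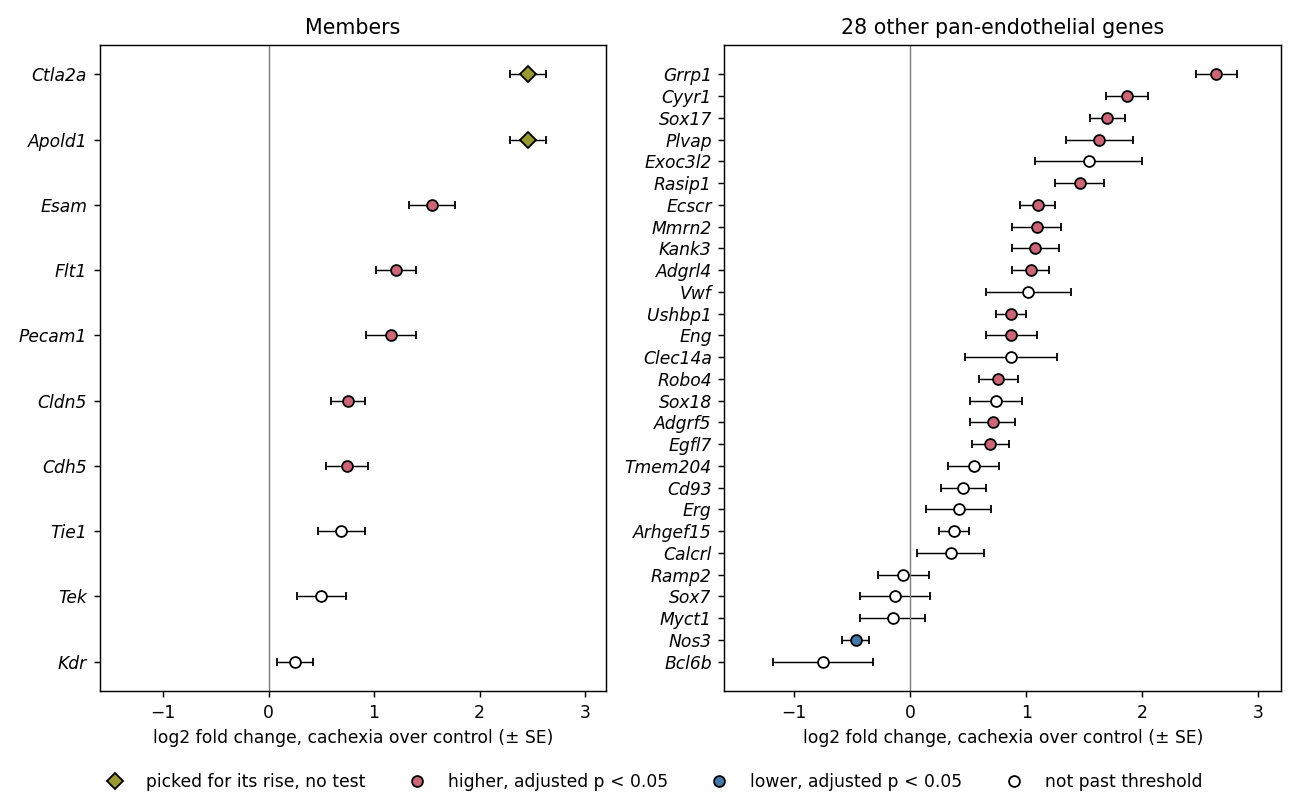
Log2 fold change of cachexia over control with its standard error (edgeR) for the 10 members, left, and the 28 other pan-endothelial genes, right. Diamonds are the 2 selected genes, which have no test, and filled circles passed the threshold of 0.05. Grrp1 is the only one of the 28 with a larger log2 fold change than Apold1 and Ctla2a, and Nos3 is the only one called lower.

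To set the selected genes against the endothelial signal of the same mouse, the mean log2 CPM of the 8 established markers was subtracted from each gene's log2 CPM. That mean was 7.45, 7.61 and 7.52 in the control mice and 8.34, 8.56 and 8.19 in the cachectic mice, a difference of 0.83. Relative to it, Apold1 was at -3.30, -3.11 and -3.29 in control mice and at -1.84, -1.56 and -1.46 in cachectic mice on the log2 scale. The difference between groups was 1.61, or 3.06-fold. Ctla2a was at -3.00, -3.20 and -3.41 in control mice and at -1.84, -1.58 and -1.33 in cachectic mice, a difference of 1.62, or 3.08-fold. Both genes were selected for a large rise in these mice and the markers were not, so these differences describe the selection and support nothing further. Among the established markers, Esam rose most against their mean, by 0.68, followed by Flt1 with 0.39, and Kdr went down most, by -0.58, followed by Tek with -0.38.

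**Figure D3:**
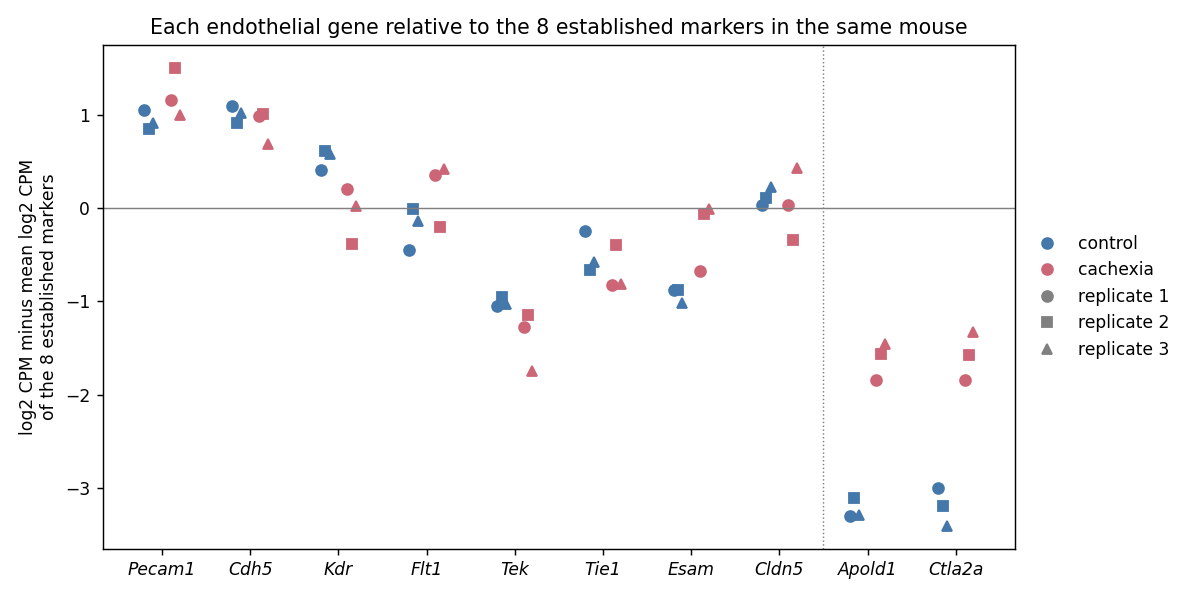
Log2 CPM of each gene minus the mean log2 CPM of the 8 established markers in the same mouse, for control mice (blue) and cachectic mice (red), with replicates 1, 2 and 3 as circles, squares and triangles. Apold1 and Ctla2a, right of the dotted line, lie between -3.41 and -3.00 in control mice and between -1.84 and -1.33 in cachectic mice, and the 8 established markers change by less.

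Apold1 and Ctla2a were selected on the same step between the groups, which largely fixes how alike their profiles over the 6 mice are, so their likeness is given as a description. The ratio of Apold1 to Ctla2a per length was between 0.477 and 0.644 in control mice and between 0.538 and 0.599 in cachectic mice. Among 13723 protein-coding genes, the likeness of profiles was measured as the root mean square difference of centred log2 CPM over the 6 mice, so that a smaller value is a closer profile. Ctla2a and Apold1 were at a distance of 0.15 and each was the second nearest gene to the other. The nearest gene to both was Tnfrsf9, which encodes the costimulatory receptor 4-1BB, at 0.14 from Apold1 and 0.11 from Ctla2a. Its expression was low, at 0.671 ± 0.0932 CPM in control mice and 3.40 ± 0.716 CPM in cachectic mice (SD, n = 3). Next to Apold1 came Nxnl1 (0.19), Pbld1 (0.19) and Pamr1 (0.21), and next to Ctla2a came Grrp1 (0.19), Pdk2 (0.21) and AA467197 (0.22). Pdk2, a pyruvate dehydrogenase kinase, went from 72.3 ± 1.51 to 324 ± 48.9 CPM (SD, n = 3). A profile that turns mainly on the step between the groups is shared by many genes that rose by a like amount.

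The relatives of the selected genes were also measured, and their difference from the selected genes was not tested. Ctla2b, the neighbouring paralogue of Ctla2a, had 0.151, 0.86 and 0.453 CPM in control mice and 0.875, 1.35 and 1.18 CPM in cachectic mice, with a log2 fold change of 1.22 (SE 0.60, adjusted p = 0.191 by edgeR). The paralogues are similar in sequence, so reads could be divided between them, and both values are uncertain to that extent. Ctsl, which encodes cathepsin L, the protease that CTLA2 proteins inhibit, had 458, 374 and 433 CPM in control mice and 424, 562 and 442 CPM in cachectic mice, and the groups overlapped. Its log2 fold change was 0.17 (SE 0.18, adjusted p = 0.527 by edgeR). Of 13 genes of the apolipoprotein L family, 6 were tested, with a median log2 fold change of 0.43. Of these 6, 1 was called higher and 0 lower, against 9.0% and 8.63% of all genes tested. The gene called was Apol11b, which had raw counts of 0, 1 and 3 in control mice and 25, 14 and 31 in cachectic mice, and its call was lost without control replicate 2 (adjusted p = 0.0571 by edgeR). Other genes overlap Cdh5 and Ctla2a in the annotation, but they held 1 count in all 6 mice for each, and strand use in counting is not given in the sources used here.

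Because Apold1 is known as an early response gene, immediate early genes, which are induced within minutes of a stimulus, were listed beside it. Of 19 tested, 3 were called higher and 1 lower, against 9.0% and 8.63% of all genes tested, with a median log2 fold change of 0.22. Maff, a small MAF transcription factor, had 6.92, 9.4 and 8.16 CPM in control mice and 24.4, 34.2 and 46.1 CPM in cachectic mice, a log2 fold change of 2.10 (SE 0.25, adjusted p = 0.00315 by edgeR). Atf3 and Ier3 had log2 fold changes of 1.17 and 0.94 (adjusted p = 0.0238 and 0.0266 by edgeR), and Egr2 had -2.85 (adjusted p = 0.0294 by edgeR). The calls of these last 3 genes were lost when some single mice were left out, with an adjusted p of up to 0.0946 by edgeR. Of 10 hypoxia-responsive genes tested of 12 listed, 3 were called higher and 0 lower, with a median of 0.63. Ddit4, an inhibitor of mTORC1 signalling, had 46.2, 26.2 and 22.6 CPM in control mice and 157, 289 and 309 CPM in cachectic mice, a log2 fold change of 2.99. Bnip3, a mitophagy receptor, and Ndrg1 had log2 fold changes of 1.15 and 1.07, and Ndrg1 lost its call without control replicate 2 or 3 (adjusted p = 0.0904 and 0.0987 by edgeR).

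The ligands and co-receptors of the VEGF and TIE receptors formed a list of 13 genes, with a median log2 fold change of -0.31. Of these, 0 were called higher and 4 lower by edgeR, against 9.0% and 8.63% of all genes tested. At an unadjusted p under 0.05 there was 1 higher, DESeq2 called 1 higher and limma-voom 0. Vegfa, the main ligand of Kdr and Flt1, had 200.1, 298 and 275 CPM in control mice and 515, 322 and 1369.9 CPM in cachectic mice. All 3 cachectic mice lay above the control mice, but they differed so much that the log2 fold change of 1.51 (SE 0.49) had an adjusted p of 0.0713 by edgeR. Without cachexia replicate 2, the lowest of its group, the adjusted p of Vegfa was 0.032 by edgeR, and with all mice DESeq2 gave 0.00484. Pgf, a ligand of Flt1 alone, had 15.4, 2.06 and 3.06 CPM in control mice and 1.28, 4.11 and 4 CPM in cachectic mice. Its log2 fold change of -1.13 (adjusted p = 0.347 by edgeR) rested on control replicate 1 and was 0.28 without it. Vegfb, also a ligand of Flt1, had a log2 fold change of -0.31 (adjusted p = 0.408 by edgeR).

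Angpt1, the activating ligand of TIE2 made by cells around the vessel, had 57.4, 50.1 and 60.9 CPM in control mice and 24.6, 15.2 and 11.2 CPM in cachectic mice. Every cachectic mouse was below every control mouse, with a log2 fold change of -1.72 (SE 0.27, adjusted p = 0.00697 by edgeR), and the call held in all 18 other settings. Angpt2, the context-dependent ligand released by endothelial cells, had 19.8, 20.0 and 16.6 CPM in control mice and 11.2, 36.2 and 47.0 CPM in cachectic mice, so the groups overlapped (log2 fold change 0.74, adjusted p = 0.272 by edgeR). Cachexia replicate 1 was the low mouse for Angpt2, and without it the adjusted p was 0.0138 by edgeR with a log2 fold change of 1.15. Angpt4 had 42.4, 3.95 and 8.78 CPM in control mice and 0.991, 1.60 and 0.0656 CPM in cachectic mice. It was called lower (log2 fold change -4.36, adjusted p = 0.0299 by edgeR), but control replicate 1 stood far above the other control mice and its call was lost without that mouse (-2.83, adjusted p = 0.06 by edgeR) and without any other mouse except control replicate 2.

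Vegfd, a ligand of VEGFR3, had 51.1, 62.2 and 58.3 CPM in control mice and 26.8, 24.6 and 22.9 CPM in cachectic mice, a log2 fold change of -1.21 (SE 0.13, adjusted p = 0.0025 by edgeR). Plxnd1, the endothelial semaphorin receptor, had 284, 341 and 319 CPM in control mice and 111, 153 and 48.8 CPM in cachectic mice. Its log2 fold change was -1.59 (adjusted p = 0.0241 by edgeR), and the adjusted p was between 0.0651 and 0.0783 without control replicate 2, control replicate 3 or cachexia replicate 1. The co-receptors Nrp1 and Nrp2, the lymphatic receptor Flt4 and the phosphatase Ptprb, which acts on TIE2 and VE-cadherin, had log2 fold changes of 0.28, 0.18, 0.12 and 0.25, all with an adjusted p above 0.4 by edgeR. Vegfc had -0.93 (adjusted p = 0.0985 by edgeR), with every cachectic mouse below every control mouse. Its adjusted p was 0.0449 by DESeq2, and 0.0395 by edgeR without cachexia replicate 1.

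Genes that share the endothelial cell type with the members but were not among them were described in the same way. Of 28 other pan-endothelial genes, 14 were called higher and 1 lower, against 9.0% and 8.63% of all genes tested. Of the 28, 23 had a positive log2 fold change, and the median was 0.81. In 19 of them every cachectic mouse lay above every control mouse, against 20.4% of all genes tested. Grrp1 had 14.2, 13.8 and 10.5 CPM in control mice and 79.3, 92.1 and 68.8 CPM in cachectic mice, a log2 fold change of 2.64 (SE 0.18, adjusted p = 0.000878 by edgeR). Cyyr1 and Sox17, the latter an arterial endothelial transcription factor, had log2 fold changes of 1.87 and 1.70 (adjusted p = 0.00162 and 0.00132 by edgeR). Among those called, Adgrf5 (0.71) and Egfl7 (0.69) were the smallest rises, and their calls were lost without several single mice, with an adjusted p of up to 0.124 by edgeR. Nos3, the endothelial nitric oxide synthase, had 61.1, 64.8 and 68.2 CPM in control mice and 47.8, 49.9 and 42.0 CPM in cachectic mice, against the direction of most of the list. Its log2 fold change of -0.47 (SE 0.12, adjusted p = 0.0339 by edgeR) lost its call in 8 of the 18 other settings, among them the omission of any mouse except cachexia replicate 2 (adjusted p 0.0524 to 0.14 by edgeR).

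Of 11 other endothelial junction and adhesion proteins tested, 4 were called higher and 0 lower, against 9.0% and 8.63% of all genes tested. Their median log2 fold change was 0.65. S1pr1, the sphingosine-1-phosphate receptor that stabilizes the barrier, had 102, 135 and 131 CPM in control mice and 279, 345 and 383 CPM in cachectic mice, a log2 fold change of 1.45 (SE 0.18, adjusted p = 0.00352 by edgeR). Cgnl1, F11r and Icam2 had log2 fold changes of 1.21, 0.73 and 0.65 (adjusted p = 0.025, 0.0125 and 0.034 by edgeR). Each of these 3 lost its call when control replicate 2 or control replicate 3 was left out, with an adjusted p of 0.0583 to 0.137 by edgeR, and Cgnl1 and Icam2 also without cachexia replicate 1 or 2. Of 20 endothelial transcription factors, 4 were called higher and 1 lower, against the same shares over all genes, with a median of 0.22. Those called higher were Sox17, Tal1 (0.99), Epas1 (0.71) and Ets1 (0.59), and the one called lower was Tcf15 (-0.84). The calls of Epas1, which encodes HIF-2α, and of Tcf15 were lost in 8 and 5 of the 18 other settings. Ets1 lost its call without any 1 control mouse (adjusted p 0.0513 to 0.0868 by edgeR) and Tal1 without control replicate 3 (0.0654).

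Leukocytes enter tissue across venules that display selectins and immunoglobulin adhesion molecules. A list of 7 genes of leukocyte adhesion and endothelial activation also holds the chemokine carrier Ackr1 and the secreted glycoprotein Lrg1. Of these 7, 5 were called higher and 0 lower, against 9.0% and 8.63% of all genes tested. The median log2 fold change was 2.29. Selp, which encodes P-selectin, had 10.2, 10.9 and 7.37 CPM in control mice and 53.3, 64.1 and 106 CPM in cachectic mice, a log2 fold change of 2.97 (SE 0.29, adjusted p = 0.00162 by edgeR). Sele, which encodes E-selectin and is made by endothelial cells only on activation, had raw counts of 13, 12 and 8 in control mice and 137, 62 and 73 in cachectic mice, a log2 fold change of 3.19 (adjusted p = 0.00388 by edgeR). Ackr1 and Icam1 had log2 fold changes of 2.29 and 1.35. Madcam1, the gut-homing addressin, had raw counts of 1, 1 and 2 in control mice and 21, 131 and 93 in cachectic mice, a rise that edgeR called (adjusted p = 0.00551) but whose size the few control counts do not fix. All 5 calls held without each mouse in turn.

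Capillary endothelium of fat also takes up lipids. Of 10 genes of this function, 4 were called higher and 1 lower, against 9.0% and 8.63% of all genes tested. Their median log2 fold change was 0.28. The gene called lower was Tcf15 (-0.84). Lpl had -0.81 (adjusted p = 0.137 by edgeR), with every cachectic mouse below every control mouse. Cd36, Fabp4, Fabp5 and Meox2 had 0.2, 0.36, -0.24 and 0.01. None of these was called, and their groups overlapped. Gpihbp1, which carries lipoprotein lipase to the capillary lumen, had 117, 104 and 118 CPM in control mice and 317, 259 and 438 CPM in cachectic mice, a log2 fold change of 1.58 (SE 0.21, adjusted p = 0.00398 by edgeR). Cd300lg had 164, 177 and 186 CPM in control mice and 509, 404 and 594 CPM in cachectic mice, a log2 fold change of 1.51 (adjusted p = 0.00315 by edgeR). Car4, a carbonic anhydrase of capillaries, had a log2 fold change of 2.05 and an adjusted p of 0.0501 by edgeR without control replicate 3. Rbp7, a retinol-binding protein of adipose endothelium, had 11.5, 12.2 and 10.9 CPM in control mice and 103, 14.2 and 259.8 CPM in cachectic mice. Cachexia replicate 2 was close to the control mice, and the log2 fold change of 3.44 (SE 0.85, adjusted p = 0.0308 by edgeR) lost its call in 9 of the 18 other settings, with a value as low as 2.35.

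By vessel type, 4 of 10 arterial genes and 3 of 6 venous genes were called higher and 0 lower, with median log2 fold changes of 0.71 and 1.03. The shares over all genes tested were 9.0% higher and 8.63% lower. The arterial genes were Sema3g (1.60), Stmn2 (1.61), Gja5 (1.03), a gap junction protein of arteries, and Notch4 (0.77), and the venous genes were Selp, Ackr1 and Ephb4 (1.04). Of these, only Sema3g, Selp and Ackr1 kept an adjusted p under 0.05 in all 18 other settings. Without control replicate 3, the adjusted p by edgeR was 0.0533 for Gja5, 0.0745 for Notch4, 0.0783 for Ephb4 and 0.0775 for Stmn2. Of 14 genes of tip cells, the leading cells of a vessel sprout, 1 was called higher (7.14%, against 9.0% of all genes tested). Another 2 were called lower (against 8.63% of all genes tested), and the median was -0.38. Apln, which encodes the ligand of the apelin receptor, had 25.4, 17.9 and 22.9 CPM in control mice and 2.39, 0.614 and 0.262 CPM in cachectic mice, a log2 fold change of -4.31 (SE 0.61, adjusted p = 0.00504 by edgeR). Nid2, a basement membrane protein, had a log2 fold change of -2.11 (adjusted p = 0.00494 by edgeR), and Pdgfb, which recruits pericytes, had 0.69 (adjusted p = 0.0333 by edgeR, up to 0.123 without single mice). Of 7 lymphatic endothelial markers, 0 were called by edgeR in either direction, and the median was -0.58. Their count was also 0 at an unadjusted p under 0.05, and by DESeq2 and limma-voom. In the leukocyte adhesion, arterial, venous, hypoxia and apolipoprotein L lists, in which edgeR called 0 genes lower, all 3 counts were likewise 0 in that direction. Among the other endothelial junction and adhesion proteins, which exclude the members, 1 was lower at an unadjusted p under 0.05, and DESeq2 and limma-voom called 0.

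**Figure D4:**
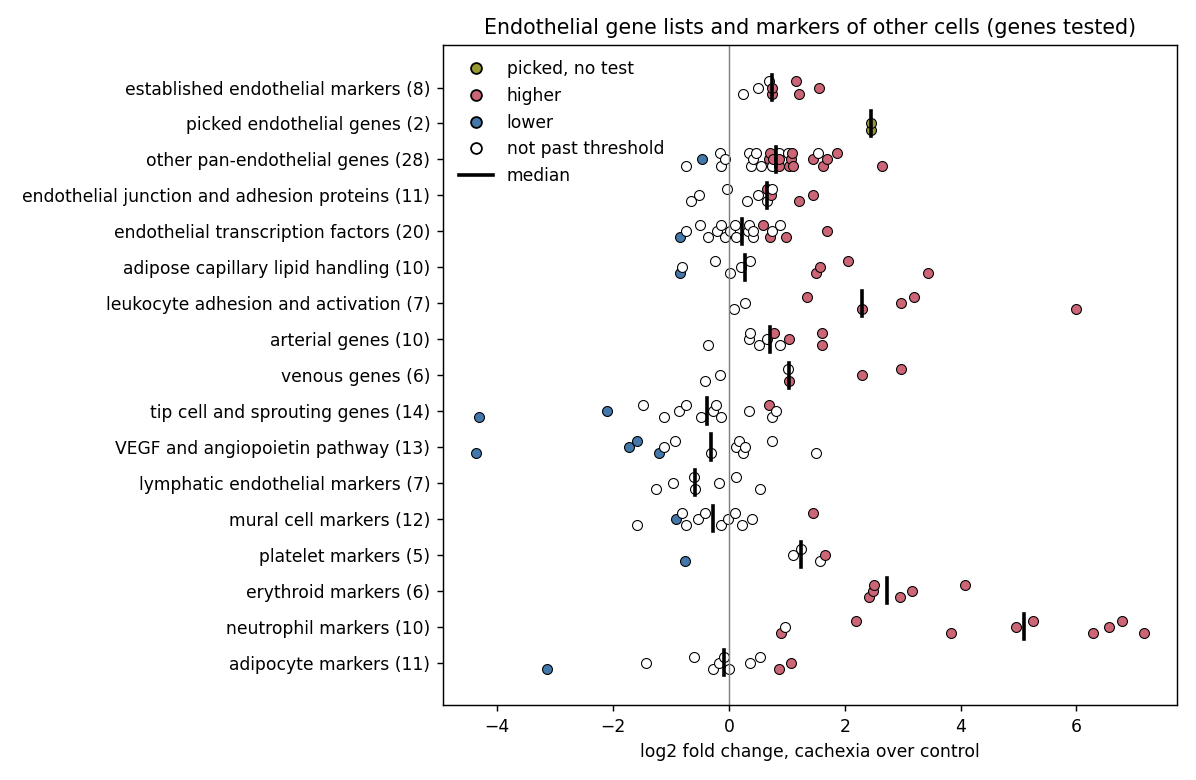
Log2 fold change of every tested gene in 17 lists of endothelial genes and markers of other cells, with the number of genes tested in parentheses and the median of each list as a black line. Red and blue points passed the threshold of 0.05 in edgeR's test, white points did not, and the olive points are the 2 selected genes. Leukocyte adhesion genes have a median of 2.29 and genes of the VEGF and angiopoietin pathway one of -0.31.

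Markers of other cells in the fat pad moved between the groups as well, and their part in the endothelial values was not tested. Beside the counts that follow, 9.0% of all genes tested were called higher and 8.63% lower. Of 10 neutrophil markers tested, 9 were called higher, and the sum of the list was 32.4 to 49.7 CPM in control mice and 259 to 819 CPM in cachectic mice. Of 6 erythroid markers tested, 6 were called higher, with a sum of 252 to 451 CPM in control mice and 1334 to 2856 CPM in cachectic mice. For platelets, which also carry PECAM-1 and ESAM, 5 of 11 markers had enough counts to be tested, Gp1bb was at 0 in all mice, and the sum was 56.3 to 60.4 CPM in control mice and 33.2 to 51.1 CPM in cachectic mice. That sum is mostly Pf4, which was called lower (52.7 to 54.8 CPM in control mice and 22.4 to 42.3 CPM in cachectic mice). Pf4 (adjusted p = 0.0484 by edgeR) kept its call in 10 of the 18 other settings. The other 4 platelet markers tested had positive log2 fold changes, and the median of the 5 was 1.25. Clec1b was called higher (1.66), and Ppbp (1.58), Itga2b (1.11) and Gp1ba (1.25) had adjusted p-values of 0.0513, 0.0626 and 0.167 by edgeR, with 0.0239 for Itga2b by DESeq2. For Clec1b, Ppbp and Itga2b every cachectic mouse lay above every control mouse. Macrophage markers, with 2 of 10 called higher and 1 lower, summed to 948 to 1177 CPM in control mice and 789 to 1276 CPM in cachectic mice, and T and NK cell markers, with 1 of 10 tested called lower, to 15.6 to 25.6 and 8.79 to 12.4 CPM.

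Pericytes and smooth muscle cells surround the endothelium. Of 12 mural cell markers, 1 was called higher and 1 lower, against 9.0% and 8.63% of all genes tested. In this list 4 had a positive log2 fold change, and the median was -0.27. The sum was 1225 to 1507 CPM in control mice and 710.2 to 1128 CPM in cachectic mice. Higd1b was the one called higher, with a log2 fold change of 1.46 (adjusted p = 0.00632 by edgeR). It had 4.11, 5.33 and 4.99 CPM in control mice and 14.7, 14.5 and 10.6 CPM in cachectic mice. Rgs5, a pericyte marker, had 533, 499.6 and 520.4 CPM in control mice and 324, 313 and 185 CPM in cachectic mice, a log2 fold change of -0.92 (adjusted p = 0.0308 by edgeR) that lost its call without any 1 control mouse (adjusted p 0.0626 to 0.102 by edgeR). Of 11 adipocyte markers, 2 were called higher, Cidec (log2 fold change 0.87) and Pnpla2 (1.08), and 1 lower, Lep (-3.14), with a median of -0.08. Cidec (adjusted p = 0.0322 by edgeR) kept its call in 7 of the 18 other settings and lost it without any 1 mouse. Plin1 had -1.44 (adjusted p = 0.057 by edgeR), with every cachectic mouse below every control mouse. The list summed to 21868 to 28195 CPM in control mice and 25588 to 37184 CPM in cachectic mice, and Cfd, with 9045 to 10801 and 9077 to 17594 CPM, was the largest part of it. Fat progenitor markers, with 4 of 8 called lower and 1 higher, summed to 5196 to 5967 CPM in control mice and 2361 to 3275 CPM in cachectic mice. Of 6 mast cell markers tested, 3 were called lower, Mcpt4 (-2.57), Cma1 (-2.0) and Cpa3 (-1.33), and 0 higher by edgeR, DESeq2 or limma-voom or at an unadjusted p under 0.05. Their list summed to 58.4 to 102 CPM in control mice and 37.4 to 86.8 CPM in cachectic mice, with Hdc at 25.1 CPM in control replicate 1 and Kit at 63.0 CPM in cachexia replicate 2. Mesothelial markers summed to 271 to 361 and 155 to 353 CPM, and epididymal epithelium markers to at most 3.46 CPM in any mouse.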

How the data were processed

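RNA-seq of eWAT from 3 LLC-induced cachectic and 3 control mice was analyzed, grouped by the labels. Each sample is called a mouse, although the sources used here do not say whether a sample was 1 animal or a pool, and p-values measure the spread between these samples. The authors aligned reads with Hisat2 (version not given in the sources used here) and counted them per gene with featureCounts 1.5.0-p3. The deposited counts are raw. The authors also deposited FPKM values, computed by them from count and gene length and used here for alternatives alone. The authors' deposited table of DEGs, with log2 fold changes and p-values from DESeq2 1.16.1, was not used.

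The counts were fitted with edgeR 4.0.16 in R 4.3.3 (genes kept by filterByExpr, TMM scaling, quasi-likelihood test, Benjamini-Hochberg over 16003 genes, threshold 0.05, no covariates). The standard error is the log2 fold change divided by the square root of F. The biological coefficient of variation was 0.264. With 3 mice a group, the smallest p of a two-sided exact permutation test is 0.1, so none was made. The scripts were tested on simulated data. No pair of samples held near-identical counts.

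The members and lists were chosen with earlier results of these data known. Named are all members, in each endothelial list the genes called (all where 6 or fewer, otherwise the 3 highest and 3 lowest), ligands, receptors and relatives of the members, and the 5 nearest profiles. Of the cell markers and of the lipid uptake genes not called, some are named after their values were seen. Log2 CPM used a prior count of 0.5. Alternatives were other scalings, filters and tools (DESeq2 1.42.0, limma 3.58.1), log2 FPKM (pseudocount 1 or 0.1), a fit restricted to protein-coding genes, thinning to the smallest total, a replicate block and each mouse left out.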

Additional observations from a re-analysis of the deposited data

How the results depend on the processing

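Across 18 alternatives, 12 of which kept all mice, the number of differentially expressed genes was 1881 to 3884 with all mice and 828 to 2339 with 1 mouse left out. The 8 established markers gave 4 to 6 calls with all mice and 2 to 7 without single mice. Their median log2 fold change was 0.71 to 0.80 with all mice and 0.71 to 0.88 without single mice. Kdr stayed uncalled throughout. Leaving out a mouse leaves 2 in 1 group, so these fits have fewer samples.

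Some log2 fold changes that were not called changed sign, among them that of Pgf, which was -1.13 with all mice. Kit was at -0.17 with limma-voom, -0.02 and -0.15 with log2 FPKM (pseudocount 1 and 0.1), and -0.15 with the replicate block. Nrp2 was at -0.01 with log2 FPKM and a pseudocount of 0.1. Without single mice, the ranges were -1.07 to 0.82 for Kit, -0.39 to 0.51 for Nrp2, -1.56 to 0.28 for Pgf, -0.35 to 0.24 for Lyve1, -0.16 to 2.08 for Hdc, -0.14 to 0.42 for Flt4 and -0.18 to 0.07 for Dcn. The cause was not tested. Some genes with low counts could not be tested with at least 10 counts in every sample. Depth limits Ctla2b, which had 3 to 22 counts per mouse.

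The labels do not say whether the replicate numbers pair the mice. The deviations of same-numbered mice correlated at 0.01, -0.02 and 0.01. These values show no clear shared deviation but cannot exclude a pairing with little effect on expression. With the replicate block, 1881 genes and 4 established markers were called, and the markers' median was 0.73. The adjusted p was then 0.0872 for Cdh5 and 0.0496 for Vegfc.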

Other observations

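Several lymphatic genes, but not all of those listed, set 1 mouse apart, as seen after the values were known. Mmrn1 had 85.5, 38.0 and 32.6 CPM in the control mice and 41.8, 38.0 and 0.393 CPM in the cachectic mice, in the order of replicates. Reln had 28.8, 35.4 and 0.197 CPM in the cachectic mice, and Prox1, the lymphatic transcription factor, had 4.90, 3.62 and 0.524 CPM. Lyve1 and Flt4 were also lowest in cachexia replicate 3, at 48.1 and 22.6 CPM, against 48.5 to 100.2 and 29.2 to 47.3 CPM in control mice. Pdpn, of the same list, went the other way, with 21.4, 12.7 and 29.2 CPM in the cachectic mice, highest in replicate 3. The mast cell marker Kit was at 63.0 CPM in cachexia replicate 2 and between 8.57 and 25.3 CPM in the other mice.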
